A study of Homo sapiens with 6 samples.

Results

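The insulin-like growth factor (IGF) binding proteins IGFBP1 to IGFBP7, the ligand IGF1 and the receptors IGF1R and INSR were followed through RNA sequencing of cells of the third pharyngeal pouch endoderm (3PPE) made from human embryonic stem cells. These 10 genes were taken by symbol from the 58735 genes of the count table. They were chosen by a reader who already knew results of the siHOXA3 against siControl comparison in these same libraries, so their differences between the groups are given here as a description and are not tested. Of the 10 genes, 8 had enough counts to enter the fit across all genes, while IGFBP1 and IGF1 did not.

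All cells came from 1 line, H9 (WA09), labelled wild type in both groups. They had been taken through Activin A and WNT3A to endoderm, then through retinoic acid, BMP4, the TGF-beta receptor inhibitor SB431542 and a Wnt inhibitor. The paper gives this inhibitor as IWP2 or IWR1. The medium held B27, a supplement whose standard form contains insulin. At day 7 the cultures received either a negative control siRNA (siControl, 3 libraries) or siRNA against HOXA3 (siHOXA3, 3 libraries), both with Lipofectamine 3000, and at day 9 they were harvested. Per the paper, Opti-MEM took the place of the differentiation medium some hours after the siRNA was given. HOXA3 is a homeobox transcription factor of the pharyngeal region, and the comparison asks how the transcriptome differs when it is targeted. The study names independent biological repeats in captions that include RNA sequencing panels, while the labels do not say whether these replicates were separate differentiations, and any p-value measures only the spread between these libraries.

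IGF1 and IGF2 act on IGF1R, a receptor tyrosine kinase that signals through insulin receptor substrates to PI3K, AKT and mTOR, and INSR is its close relative for insulin. In body fluids and in the matrix around cells, most IGF is held by the binding proteins, which lengthen its life and limit its access to the receptor. Proteases such as PAPPA and PAPPA2 cut particular binding proteins and release the ligand. In the embryo this system is best known for the control of growth.

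The 7 binding protein genes are related to each other, and the relation is seen most directly in their first coding exon. There, a run of cysteine codons with the spacing Cys-Gly-Cys-Cys-x-x-Cys lies in the part of the protein that forms the IGF-binding pocket. The stretch is shown because it marks the family, and because IGFBP6 differs in it. The sequences come from GENCODE 29 transcripts (GRCh38), each lies in exon 1, and capitals mark the cysteine codons.
IGFBP1, chr7:45888821-45888841, plus strand: TGCggcTGTTGCccgatgTGC
IGFBP2, chr2:216633773-216633793, plus strand: TGCggcTGCTGCtcggtgTGC
IGFBP3, chr7:45920922-45920942, minus strand: TGCggcTGCTGCctgacgTGC
IGFBP4, chr17:40443892-40443912, plus strand: TGCggcTGTTGCgccactTGC
IGFBP5, chr2:216694599-216694619, minus strand: TGCggcTGCTGCatgaccTGC
IGFBP7, chr4:57110163-57110183, minus strand: TGCggcTGCTGCcctatgTGC
No stretch of this form was found in IGFBP6, whose coding sequence has 16 cysteine codons, against 18 to 21 in the other 6. Codons for Cys-Trp-Cys-Val, in the conserved C-terminal domain of the classical binding proteins, were found in IGFBP1 to IGFBP6 and not in IGFBP7. An Arg-Gly-Asp triplet, the short sequence that integrins can bind, was found in IGFBP1 and IGFBP2.

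Several binding protein genes lie in pairs, and most share a chromosome with a HOX cluster (GRCh38 annotation). IGFBP1 (chromosome 7, 45888357 to 45893668, plus strand) and IGFBP3 (45912245 to 45921874, minus strand) end towards each other across 18576 bases, and the HOXA cluster with HOXA3 is on the same chromosome, 18.71 Mb from IGFBP3. IGFBP2 (chromosome 2, 216632828 to 216664436, plus strand) and IGFBP5 (216672105 to 216695525, minus strand) form a second such pair with 7668 bases between them, on the chromosome of HOXD. IGFBP4 (chromosome 17, 40443461 to 40457731) shares its chromosome with HOXB, and IGFBP6 (chromosome 12, 53097436 to 53102345) lies 0.84 Mb from HOXC. IGFBP7 (chromosome 4, 57030773 to 57110385), IGF1R (chromosome 15, 98648539 to 98964530) and INSR (chromosome 19, 7112255 to 7294034) share a chromosome with no HOX cluster. IGF1 (chromosome 12, 102395874 to 102481744, minus strand) was the most overlapped of the 10 genes, since 81.5% of its 50-base stretches also occur in other transcripts. Among these is the long noncoding HELLPAR, which overlaps IGF1 on the opposite strand. None of the 50-base stretches was shared between binding protein genes, so the family members could be told apart by reads of that length. In IGFBP7, 14.5% of the stretches and in IGFBP5 3.88% are shared with antisense transcripts, and whether the counting used strand is not given in the sources used here.

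Promoter sequences were found in the RefSeq table (GRCh38.p14) for 8 of the 10 genes, IGFBP1 and IGFBP7 not being among them. The 120 bases before the start are shown for the most abundant members, IGFBP3 and IGFBP5, and for the least abundant tested one, INSR, because these 3 promoters differ plainly in kind. Capitals mark GGGCGG or its complement CCGCCC (a GC box), TATA from 40 to 20 bases before the start, or TATTTAA in the same place.
IGFBP3, chr7:45921273-45921392, minus strand: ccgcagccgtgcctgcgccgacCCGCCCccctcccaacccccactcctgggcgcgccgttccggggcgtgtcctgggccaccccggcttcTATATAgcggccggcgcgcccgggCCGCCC
IGFBP5, chr2:216695550-216695669, minus strand: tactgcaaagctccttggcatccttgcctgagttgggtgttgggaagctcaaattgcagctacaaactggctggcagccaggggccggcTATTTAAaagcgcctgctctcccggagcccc
INSR, chr19:7294415-7294534, minus strand: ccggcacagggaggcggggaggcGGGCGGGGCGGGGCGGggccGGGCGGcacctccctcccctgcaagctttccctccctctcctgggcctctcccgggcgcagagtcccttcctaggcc
IGFBP3 has 2 GC boxes and a TATA, IGFBP5 has the TATTTAA and no GC box, and INSR has 4 GC boxes, 3 of them overlapping in 1 run, and no TATA. Over windows of 300 bases, 45% of 35116 RefSeq promoters hold GGGCGG on either strand, 5.91% hold a TATA near the start and 0.308% the TATTTAA, a form that was searched for after the IGFBP5 sequence had been seen. The homeodomain core TAAT, searched on both strands, was absent from the windows of IGFBP3, IGFBP4, IGFBP5, IGFBP6, IGF1R and INSR and is held by 50.2% of all promoters. It was found in windows of the remaining genes with a promoter, IGFBP2 (though not in each of its windows) and IGF1. These matches describe letters and not bound sites.

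The libraries held 14117150 to 15282307 counts. HOXA3 itself had 248, 240 and 236 counts in siControl and 159, 199 and 220 in siHOXA3, or 16.0 ± 0.606 against 13.2 ± 2.28 CPM (counts scaled to library size; SD, n = 3 each). The groups touched at 15.5 CPM, and the difference of -0.27 log2 (SE 0.157) did not pass the test (adjusted p = 0.828, edgeR). By qRT-PCR and Western blot, the paper reports a significant reduction of HOXA3 RNA and protein after the siRNA. Among 16561 genes tested, 1 was called at an adjusted p under 0.05 (0.00604%), BOLA2B, named after its values were seen and a gene with near-identical copies. Of 8 markers of pouch endoderm, EPCAM and EYA1 passed 1 CPM in every library, PAX9 was at 0 to 1.06 CPM, and PAX1, FOXA2 and SOX17 had under 3 counts everywhere. All 8 amnion and trophoblast markers passed 1 CPM, led by GABRP and KRT7, and their summed level was 2634.7 to 2867.6 CPM in siControl and 2708.6 to 2938.1 in siHOXA3. For 6 mesenchyme markers, led by COL1A1 and LUM, it was 3368.4 to 3544.0 against 3210.5 to 3781.9 CPM. For 6 liver markers, led by AFP and APOA1, it was 4.56 to 6.18 against 3.59 to 6.05 CPM, with SERPINA1 at 0. For 4 pluripotency markers it was 102.8 to 117.7 against 109.7 to 130.7 CPM. DPPA4 led them at 101.7 ± 7.42 against 106.2 ± 10.0 CPM, and POU5F1 followed at 5.47 ± 0.614 against 7.04 ± 1.28 CPM (SD, n = 3 each). Every siHOXA3 library was above siControl for POU5F1, with siHOXA3 replicate 2 the highest at 8.51 CPM. The same separation held for 2 of the 8 amnion and trophoblast markers and for 6.41% of all genes tested. In every other tested marker of the lists the groups overlapped. The part of each of these cell types in the members' levels was not tested, and in bulk libraries fewer cells of a type and less RNA per cell cannot be told apart. The library siHOXA3 replicate 2 stood apart from the other libraries of its group, as described with the lengths of the members below.

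Levels were compared between genes on a scale per length, TPM, computed from the counts and the merged exon length of each gene. IGFBP3, the main carrier of IGFs in blood, stood far above the other members at 2695.7 ± 172.1 TPM in siControl (SD, n = 3), and it ranked 18th to 23rd of all 58735 genes across the 6 libraries. IGFBP5, which also binds extracellular matrix, followed at 607.8 ± 29.8 TPM, and IGFBP2, abundant in fetal fluids, at 317.5 ± 17.2 TPM. These 3 did not overlap in the siControl libraries. IGFBP7, a more distant relative that binds IGFs weakly, was at 75.4 ± 8.81 TPM, and IGF1R came next at 46.6 ± 3.67 TPM. IGFBP6, which prefers IGF2, and IGFBP4, an inhibitor of IGF action, were at 31.3 ± 8.38 and 28.1 ± 5.85 TPM and overlapped with each other. INSR, at 14.3 ± 0.816 TPM, was the lowest member with a measurable level.

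**Figure D1:**
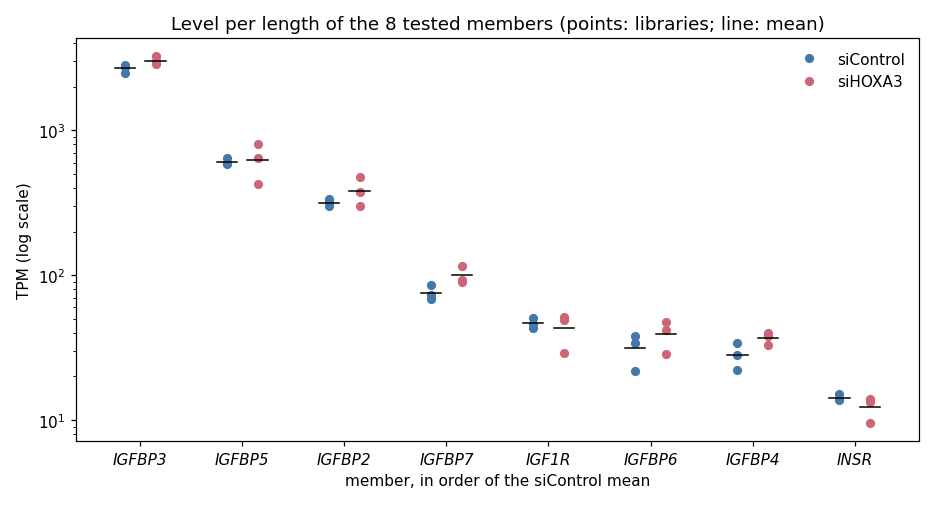
Level per length of the 8 tested members in each library, in TPM on a log scale, with members ordered by their siControl mean; points are libraries and lines are group means (n = 3). IGFBP3 lies between 2507.8 and 3259.1 TPM in the 6 libraries, while INSR lies between 9.59 and 15.2 TPM.

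The order of the means was the same in siHOXA3, where IGFBP3 was at 3037.6 ± 203.8, IGFBP5 at 625.1 ± 190.8 and IGFBP2 at 383.2 ± 88.3 TPM. There the neighbours IGFBP5 and IGFBP2 overlapped, as did IGF1R and IGFBP6, and IGFBP6 and IGFBP4. The order of the middle members depends on the length used. With the median transcript length of each gene in place of its merged exons, 5 of the 10 genes kept their place, IGF1R moved up to rank 4 and INSR to rank 5, and IGFBP4 dropped to rank 8. With the longest coding transcript, IGFBP2 stood above IGFBP5. IGFBP3 was first under all 3 lengths.

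Taken as a family, the 7 binding protein genes made up 0.456% ± 0.0110 of all counts in siControl and 0.523% ± 0.00987 in siHOXA3 (SD, n = 3 each). The groups did not overlap in this sum, which is over genes picked with this contrast known. Most of it was IGFBP3, with 0.312% ± 0.0158 of all counts in siControl and 0.362% ± 0.0236 in siHOXA3. Among all single genes tested, 6.41% had every siHOXA3 library above siControl by CPM and 6.88% had every one below. IGFBP3 alone gave 71.7% ± 1.75 of the summed binding protein TPM in siControl and 71.9% ± 2.40 in siHOXA3. IGFBP5 gave 16.2% and 14.8%, and IGFBP2 8.45% and 9.10%. The 4 others, IGFBP1 included, stayed under 3% each in every library. The summed binding protein TPM exceeded the summed TPM of IGF1R and INSR 62.0 ± 6.78 times in siControl. In siHOXA3 this ratio was 64.0, 105.9 and 70.2 in the 3 libraries, and replicate 2 gave the highest. Between the receptors, IGF1R was 3.26 ± 0.131 times as high as INSR in siControl and 3.46 ± 0.391 times in siHOXA3. The TPM shares and ratios rest on merged exon lengths. In siControl, the median transcript length put IGF1R at 281.2 and INSR at 56.7 TPM, beside IGFBP3 at 3775.0. With the longest coding transcript, IGF1R was at 37.4, INSR at 11.7 and IGFBP3 at 3599.5 TPM. That length also put IGFBP2 at 741.2 TPM, above IGFBP5 at 444.1. RNA levels do not give the amounts of secreted or receptor protein.

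IGFBP3 was counted at 2938.2, 3189.9 and 3222.6 CPM in siControl and at 3377.0, 3825.1 and 3736.5 CPM in siHOXA3. Every siHOXA3 library was above every siControl library, and the fitted difference was 0.23 log2 (SE 0.119), a fold of 1.17. IGFBP7 was at 33.8, 42.0 and 34.7 CPM in siControl against 44.5, 62.8 and 45.1 CPM in siHOXA3. Here too the groups did not overlap, replicate 2 of siHOXA3 was the highest of the 6, and the difference was 0.46 log2 (SE 0.153). These were the only members whose groups lay apart, 2 of 8 with siHOXA3 above and 0 of 8 with siHOXA3 below. Among all tested genes, 6.41% had all siHOXA3 libraries above and 6.88% had all of them below.

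IGFBP2 was at 366.3, 406.7 and 376.0 CPM in siControl and at 369.1, 633.2 and 447.9 CPM in siHOXA3. Replicate 1 of siHOXA3 lay inside the siControl range and replicate 2 far above it, which gave a difference of 0.34 log2 (SE 0.171). IGFBP4, the classical substrate of PAPPA, was at 19.1, 15.7 and 12.1 CPM in siControl and at 21.7, 24.5 and 18.2 CPM in siHOXA3. The groups overlapped, and the difference was 0.46 log2 (SE 0.182). IGFBP6 was at 13.0, 11.8 and 7.27 CPM against 14.4, 17.9 and 9.65 CPM. Its replicate 3 was the lowest library of each group, and the difference of 0.39 log2 (SE 0.254) was set against a spread of similar size within the groups.

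IGFBP5 was at 1058.9, 960.4 and 954.7 CPM in siControl and at 1342.3, 766.1 and 1039.6 CPM in siHOXA3. The siHOXA3 libraries held both the highest and the lowest value of the 6, and the means differed by 0.08 log2 (SE 0.175). IGFBP1, made mainly by liver and decidua and repressed by insulin, had 0 counts in all 6 libraries. At these depths 3 counts, the floor used here, amount to 0.197 to 0.211 CPM. A count of 0 does not show that the RNA of IGFBP1 was absent.

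**Figure D2:**
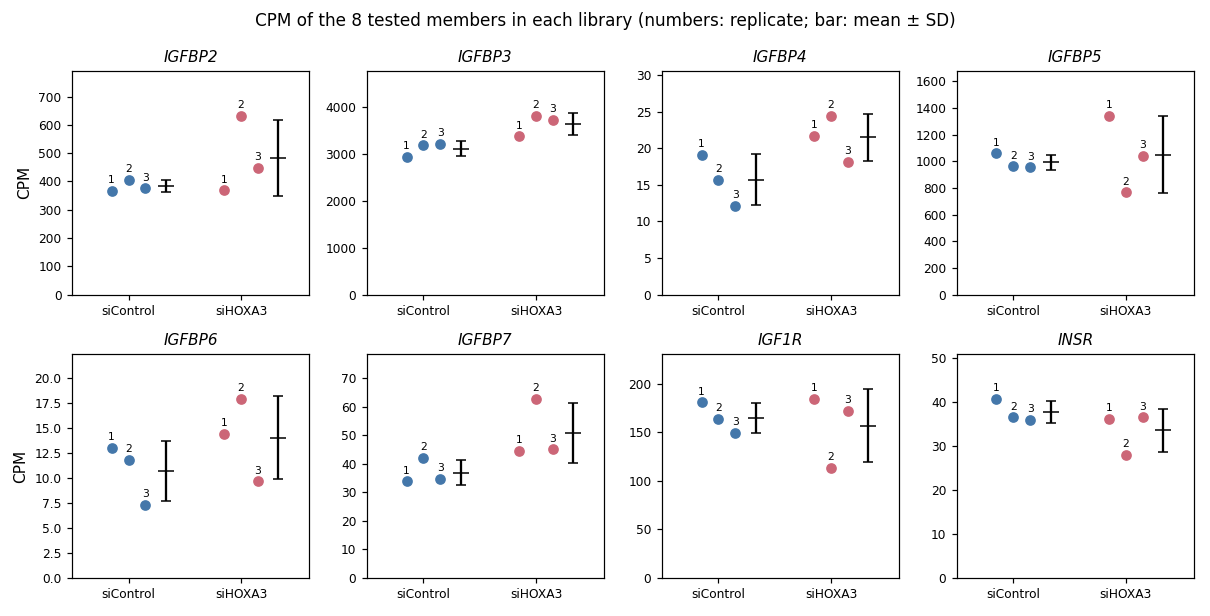
CPM of the 8 tested members in each of the 6 libraries, with 1 panel for each gene and its own linear axis from 0; numbers mark the replicate and bars the mean ± SD (n = 3). In IGFBP2, IGFBP6 and IGFBP7 siHOXA3 replicate 2 is the highest library of all, at 633.2, 17.9 and 62.8 CPM, while in IGFBP5, IGF1R and INSR it is the lowest, at 766.1, 113.5 and 28.0 CPM.

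Of the ligands, IGF1 was hardly counted, with 1 count in siControl replicate 3, 1 count in siHOXA3 replicate 3 and 0 in the other 4 libraries. Since 81.5% of its 50-base stretches also occur in other transcripts, reads of IGF1 could have been left uncounted. How shared reads were counted is not given in the sources used here, so these counts do not show that its RNA was absent. IGF2, the main IGF of the embryo, was at 247.6, 193.6 and 141.6 CPM in siControl and at 228.9, 84.8 and 241.9 CPM in siHOXA3. The groups overlapped widely, siHOXA3 replicate 2 was the lowest of the 6, and the difference was -0.07 log2 (SE 0.320). On the scale per length, IGF2 at 109.7 ± 28.3 TPM in siControl lay by its mean between IGFBP2 and IGFBP7. A second identifier with the symbol IGF2 had 0 counts.

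IGF1R, the signalling receptor for both IGFs, was at 180.5, 163.8 and 149.3 CPM in siControl and at 184.3, 113.5 and 171.8 CPM in siHOXA3. Apart from replicate 2, the siHOXA3 libraries lay near or within the siControl range. INSR was at 40.8, 36.6 and 36.0 CPM in siControl and at 36.2, 28.0 and 36.6 CPM in siHOXA3, again with replicate 2 below the rest. The differences were -0.07 log2 (SE 0.163) for IGF1R and -0.17 log2 (SE 0.131) for INSR.

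In the fit across all genes, 6 of the 8 tested members had a positive difference and 2 a negative one, with a median of 0.28 log2 beside 0.0019 over all tested genes. None of the 8 was called at an adjusted p under 0.05, where 0.00604% of all genes were. At an unadjusted p under 0.05, 2 of the 8 were counted, IGFBP4 and IGFBP7, where 6.36% of all genes were. Nothing is read from these counts, since the members were picked with this contrast known.

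One siHOXA3 library stood apart by transcript length. In replicate 2 of that group the median deviation from the mean of the other 2 libraries fell steadily with transcript length, over 5 classes of about equal size. It went from 0.337 log2 in the class of coding genes with the shortest transcripts (median 1526.0 bases) to -0.283 log2 in the class with the longest (median 7730.0 bases). No siControl library deviated by more than 0.022 log2 in any class. The counts of replicate 2 also differed from replicates 1 and 3 by a chi-square of 30.7 and 33.8 per degree of freedom, where the other pairs within a group gave 4.80 to 9.45. No pair was close enough to be the same library deposited again.

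The members fell on both sides of this trend. In siHOXA3 replicate 2 the deviation was 0.64 log2 for IGFBP2, 0.58 for IGFBP6 and 0.48 for IGFBP7, whose longest coding transcripts have 1439, 1177 and 1427 bases. It was 0.30 for IGFBP4 and 0.11 for IGFBP3, with 2200 and 2412 bases. For the long transcripts of IGFBP5 (6215 bases), INSR (8954 bases) and IGF1R (12235 bases) it was -0.62, -0.37 and -0.65 log2. All 5 shorter members were thus above the other siHOXA3 libraries in replicate 2, and all 3 longer ones below, the direction of the genome-wide trend. The part of the length trend in any single member's value was not tested.

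**Figure D3:**
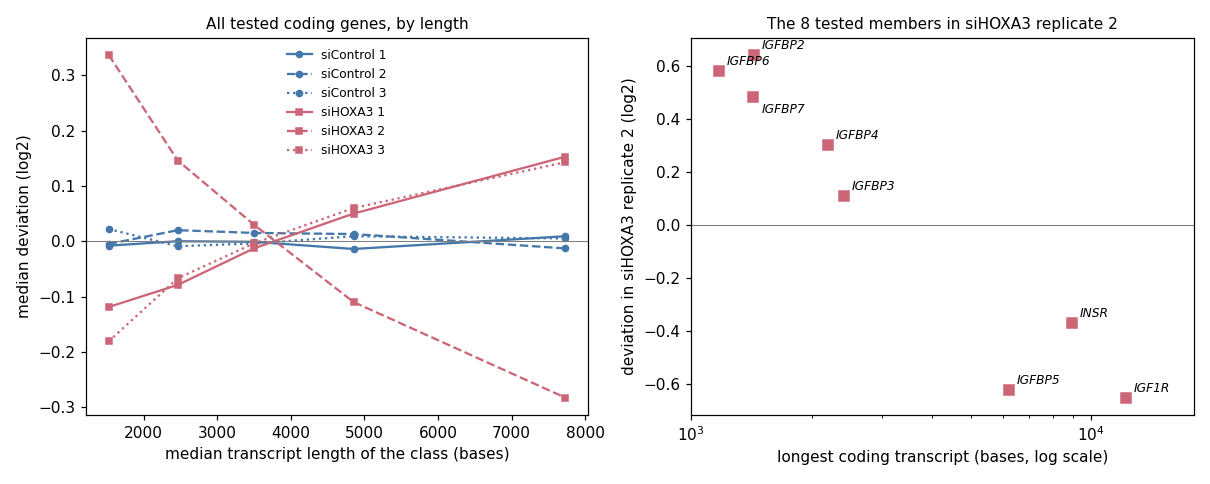
Left, the median deviation of each library from the mean of the other 2 libraries of its group (log2 CPM) in 5 equal classes of the tested coding genes by transcript length in bases; siHOXA3 replicates 1 and 3 mirror replicate 2 because it enters their mean. Right, the deviation of the 8 tested members in siHOXA3 replicate 2 against the length of the longest coding transcript (log axis), from 0.64 for IGFBP2 to -0.65 for IGF1R.

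Without siHOXA3 replicate 2 the difference was 0.09 log2 for IGFBP2, 0.19 for IGFBP3, 0.34 for IGFBP4, 0.17 for IGFBP6 and 0.28 for IGFBP7. IGFBP5 stood at 0.26 log2 and INSR at -0.06, and IGF1R changed sign to 0.11. The groups of IGFBP3 and IGFBP7 still did not overlap, again 2 of the 8 members, where 27.6% of all genes tested had groups apart in either direction with this library left out. A smooth correction of all 6 libraries for length and GC, chosen after the data had been seen, gave 0.23, 0.20, 0.36, 0.14, 0.20 and 0.37 log2 for IGFBP2 to IGFBP7 in turn. It gave -0.01 for IGF1R and -0.09 for INSR. IGFBP3 moved least between the 3 fits.

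**Figure D4:**
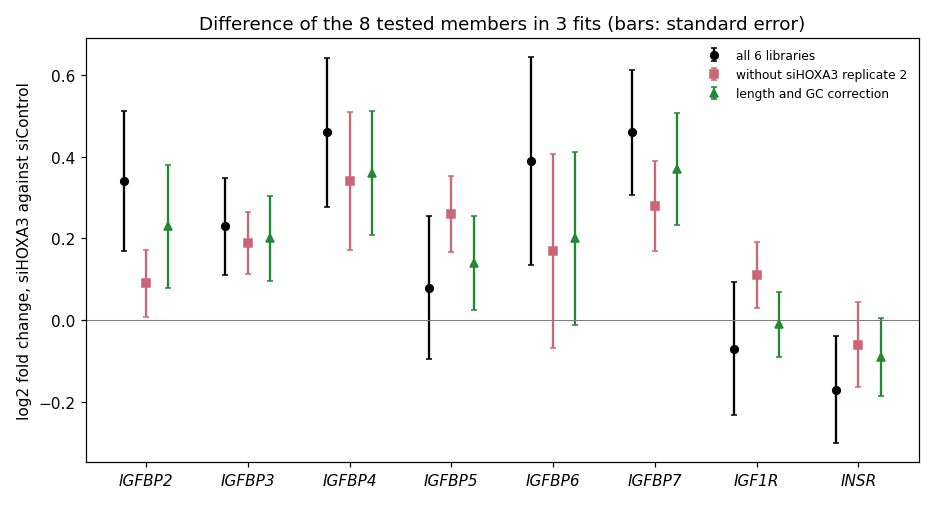
Log2 fold change of the 8 tested members, siHOXA3 against siControl, with all 6 libraries (black), without siHOXA3 replicate 2 (red) and corrected for length and GC (green); bars are standard errors. IGFBP2 moves from 0.34 to 0.09 without that library, while IGFBP3 lies between 0.19 and 0.23 in all 3 fits.

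The rest of the IGF axis was read from 36 genes listed by their role, with 33 of them tested. Of these, 10 had a positive and 23 a negative difference, with a median of -0.064 log2. None was called at an adjusted p under 0.05 (0.00604% of all genes), and 4 had an unadjusted p under 0.05, 2 in each direction (6.36% of all genes). All siHOXA3 libraries were above siControl for 2 of the 33 (6.41% of all genes) and below for 5 (6.88%).

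Among ligands, carriers and receptors outside the members, IGFBPL1, a gene for a protein like the IGFBPs, was at 68.9, 72.2 and 56.5 CPM in siControl and at 80.0, 80.0 and 111.6 CPM in siHOXA3. All siHOXA3 libraries were higher, by 0.46 log2 in the fit (SE 0.148, unadjusted p = 0.0102, adjusted p = 0.673, edgeR). Without siHOXA3 replicate 3 it was 0.28 log2 (unadjusted p = 0.0564, edgeR), and corrected for length and GC it was 0.30 log2 (unadjusted p = 0.0534, edgeR). IGF2R, which clears IGF2 from the cell surface, was at 269.4 ± 16.5 CPM in siControl and 242.5 ± 62.1 CPM in siHOXA3 (SD, n = 3 each), with 171.5 CPM in replicate 2. IGFALS, the subunit that joins IGFBP3 or IGFBP5 in the large complex of blood, was under 1 CPM in every library. INS and INSRR had 0 counts throughout.

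The genes that cut the binding proteins, and their inhibitors, were all expressed. PAPPA2, the protease of IGFBP3 and IGFBP5, was at 145.2, 144.6 and 172.1 CPM in siControl and at 251.1, 136.1 and 236.1 CPM in siHOXA3. Replicates 1 and 3 of siHOXA3 lay far above siControl and replicate 2 below it. The difference was 0.43 log2 (SE 0.193, adjusted p = 0.773, edgeR), and without siHOXA3 replicate 2 it was 0.66 log2 (SE 0.0805, adjusted p = 0.00102, edgeR). PAPPA2 was the only listed gene of the axis called without that library, where 0.140% of all genes tested were called, and the call rests on 2 siHOXA3 libraries and on a list made with this contrast known. It was 0.27 log2 (unadjusted p = 0.194, edgeR) without siHOXA3 replicate 1 and 0.33 log2 (unadjusted p = 0.134, edgeR) without replicate 3. PAPPA, the protease of IGFBP4, was at 9.00, 9.05 and 8.19 CPM against 6.67, 5.12 and 7.11 CPM. The groups did not overlap, with -0.47 log2 (SE 0.186, unadjusted p = 0.0271, adjusted p = 0.729, edgeR). Without siHOXA3 replicate 2 the PAPPA difference was -0.35 log2 (unadjusted p = 0.0811, edgeR). It was -0.45 log2 without siControl replicate 1 (unadjusted p = 0.0684, edgeR) or replicate 2 (unadjusted p = 0.0753, edgeR). With any other library left out, its unadjusted p stayed under 0.05 (edgeR). STC2, which inhibits both proteases, was at 105.6, 89.4 and 85.9 CPM against 84.7, 70.2 and 79.4 CPM, with -0.26 log2 (SE 0.116, unadjusted p = 0.045, adjusted p = 0.767, edgeR), or -0.17 log2 without siControl replicate 1 (unadjusted p = 0.208, edgeR). HTRA1, a serine protease of binding proteins, was at 9.78 ± 0.417 against 11.3 ± 1.94 CPM (SD, n = 3 each).

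Downstream of the receptors, 6 of 24 tested adaptors and transducers of PI3K, AKT and mTOR had a positive difference and 18 a negative one, with a median of -0.063 log2. AKT2, a kinase that carries the insulin signal, had the highest level by CPM, at 163.8 ± 7.49 in siControl and 161.5 ± 29.1 in siHOXA3. MTOR, the kinase of cell growth, was at 159.0 ± 14.0 against 144.3 ± 41.4 CPM, and FOXO3, a transcription factor that AKT holds out of the nucleus, at 153.5 ± 12.2 against 132.5 ± 19.9 CPM. In all 3, siHOXA3 replicate 2 was the lowest of the 6 libraries.

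**Figure D5:**
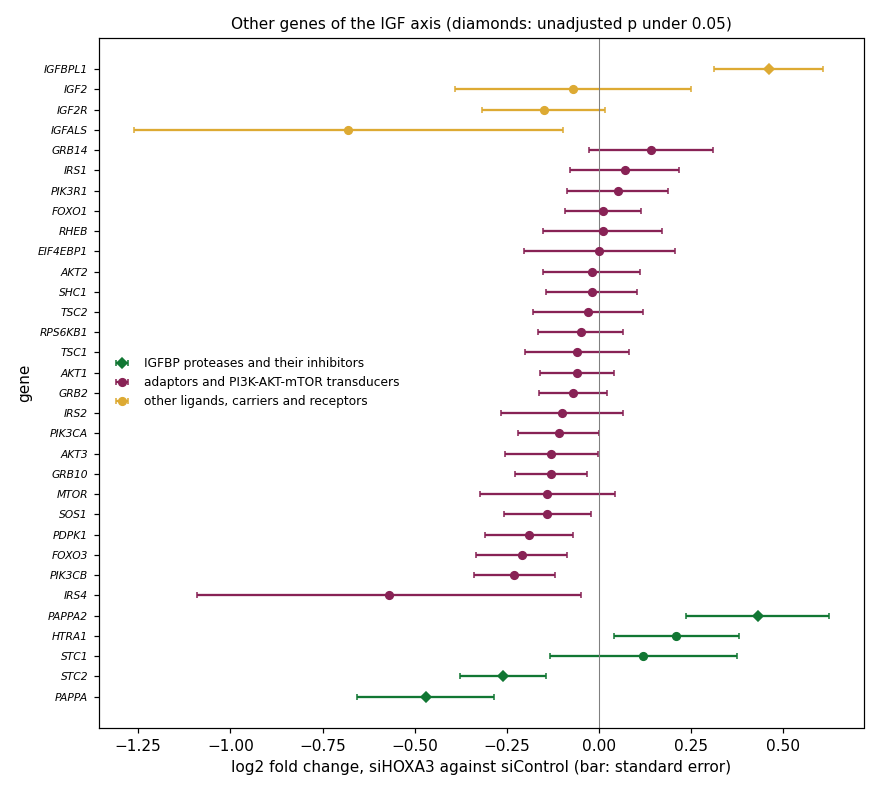
Log2 fold change of 32 tested genes of the IGF axis outside the members, siHOXA3 against siControl in all 6 libraries, coloured by role; bars are standard errors and diamonds mark an unadjusted p under 0.05. IGFBPL1 and PAPPA2 lie to the right at 0.46 and 0.43 log2, and STC2 and PAPPA to the left at -0.26 and -0.47 log2, while most transducers lie near 0.

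The members with the widest range over the 6 libraries were IGFBP6 (1.24 log2 CPM) and IGFBP4 (0.989). Likeness to them was measured as the root mean square difference between centred log2 CPM values, over 6 libraries and 15240 genes. The nearest to IGFBP6 were CXorf56 (0.0821), SEPT1 (0.106) and PXMP2 (0.112), each highest in siHOXA3 replicate 2. The nearest to IGFBP4 were YBX1 (0.0476), LSM7 (0.0517) and MRPL24 (0.0541). YBX1 ran from 364.0 CPM in siControl replicate 3 to 680.3 CPM in siHOXA3 replicate 2, as IGFBP4 ran from 12.1 to 24.5 CPM between the same libraries. With 6 libraries and a pool of this size, close patterns are a description only.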

How the data were processed

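RNA of H9-derived 3PPE cells (3 siControl and 3 siHOXA3 libraries, day 9) was sequenced as single reads. Per the labels the libraries followed the Ligation Mediated Sequencing protocol, and a SMARTER mRNA-Seq kit is also named. The authors deposited 1 table of whole-number counts per gene, not normalized. The aligner and counter are not given in the sources used here. The submitters' processing notes name a mouse build (GRCm38, mm10), while all 58735 identifiers are human and were found in GENCODE 29.

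From these counts, CPM (library totals times edgeR TMM factors) and TPM (merged exon lengths) were computed. The test was the edgeR quasi-likelihood test (edgeR 4.0.16, R 4.3.3), filterByExpr, two-sided, adjusted by Benjamini-Hochberg over 16561 genes. The exact permutation test of 3 against 3 libraries cannot go below p = 0.1 and was not used. Alternatives used DESeq2 1.42.0, limma 3.58.1 and, for length and GC content, mgcv 1.9.3. Likeness used log2 CPM with a pseudocount of 0.5.

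The members and all gene lists were chosen with earlier results of these data known. Named were all members, HOXA3, the other IGF axis genes and FOXO targets with an unadjusted p under 0.05 plus the 3 highest in siControl of each list, the 3 nearest genes of the 2 widest-ranging members, and of each marker list the 2 highest and any under 3 counts throughout. PAX9 was named after its values had been seen. The values of 1 listed IGF axis gene are not reported here, and it is left out of the plot of the axis. A floor of 3 counts covers counting error only.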

Additional observations from a re-analysis of the deposited data

How the results depend on the processing

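No member was called under any alternative fit at an adjusted p under 0.05, and 2 were at an unadjusted p under 0.05 in the edgeR fit, IGFBP4 and IGFBP7. That unadjusted count was 1 to 4 over the alternatives: IGFBP7 was counted in all of them but the fit without siControl replicate 1, and IGFBP4 was not counted without siControl replicate 2 or 3 or without siHOXA3 replicate 1 or 2. Over all genes, 1 was called in the edgeR fit, 38 with DESeq2, 100 without a filter on low counts, 67 with limma-voom and sample quality weights, and 1053 at an unadjusted p under 0.05. Leaving out 1 library at a time gave 1 to 24 called genes, the 24 without siHOXA3 replicate 2. Of the other IGF axis genes, 0 were called in the edgeR fit and 0 to 1 with 1 library left out, 1 with limma-voom (PAPPA2, as without siHOXA3 replicate 2), and 4 at an unadjusted p under 0.05. Of 112 values of members under an alternative, 109 kept their direction and 3 reversed: IGF1R was 0.08 log2 with limma-voom and 0.11 without siHOXA3 replicate 2, and IGFBP5 was -0.13 without siHOXA3 replicate 1. With a library left out, IGFBP2 ran from 0.09 to 0.50 log2, IGFBP4 from 0.30 to 0.62, IGFBP6 from 0.17 to 0.60, IGFBP7 from 0.28 to 0.57, IGFBP5 from -0.13 to 0.26, IGF1R from -0.21 to 0.11 and INSR from -0.23 to -0.06, while IGFBP3 ran from 0.19 to 0.28; HOXA3 ran from -0.40 to -0.15. The cause of these moves was not tested. The order by level per length kept 5 of 10 places with the median transcript length. Same-numbered libraries correlated in their deviations at 0.158, 0.111 and -0.0714, so the numbers were not taken to pair the libraries; a fit with the replicate block called 4 genes and no member.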

Other observations

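The 3 IGF2 mRNA-binding proteins, which stabilise transcripts of the embryo including that of IGF2, were abundant in both groups. IGF2BP1 was at 458.7 ± 12.5 CPM in siControl and 418.4 ± 87.9 CPM in siHOXA3, IGF2BP2 at 206.2 ± 13.4 and 211.5 ± 29.5 CPM, and IGF2BP3 at 228.5 ± 2.91 and 220.3 ± 43.8 CPM (SD, n = 3 each). None of the 3 passed the edgeR test, and in all of them siHOXA3 replicate 2 was the lowest of the 6 libraries.

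FOXO transcription factors are kept out of the nucleus when AKT is active, and 10 genes known to be transcribed by them were found in the table, with 7 tested. Of these, 1 had a positive and 6 a negative difference, with a median of -0.057 log2, and none passed the edgeR test or had groups that lay apart. SESN3, a stress-induced regulator of mTOR, was the highest at 1038.7 ± 76.2 CPM in siControl and 998.3 ± 147.8 CPM in siHOXA3. CCNG2, a cyclin of resting cells, was at 118.2 ± 10.2 and 114.8 ± 10.9 CPM, and TXNIP, an inhibitor of thioredoxin and glucose uptake, at 101.1 ± 3.32 and 92.8 ± 16.9 CPM. The gluconeogenic targets G6PC and PCK1 had 0 counts and at most 1 count in any library, and PDK4 had 0.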
